A study of Mus musculus with 10 samples.

Results

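The microRNA genes Mir9-1, Mir9-2, Mir9-3, Mir132, Mir212, Mir137, Mir29a and Mir29b-1 were examined for binding of REST, the repressor element 1-silencing transcription factor, in the mouse cortex. These 8 genes were taken by their RefSeq symbols from the 1228 microRNA genes that RefSeq places on chromosomes 1 to 19 and X of the mm10 assembly. A peak was assigned to a gene when it overlapped the hairpin or lay within 10 kb of it. REST ChIP-seq had been performed on frozen cortex of female WT and 3xTg mice aged 11 months, with 4 replicates for either genotype. Every replicate pooled 4 cortices, and either genotype had 1 input library. The 3xTg line carries mutant APPSwe and mutant tau transgenes together with a mutant presenilin 1 knock-in allele, and the WT mice were littermate controls. The antibody recognized the C-terminus of REST in whole cortical tissue, so a peak cannot be assigned to neurons or to glia. Each genotype is represented by 1 peak list that combines its 4 replicates, so no value below has a replicate spread and no test between genotypes was made.

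REST is a zinc finger repressor that keeps neuronal genes silent outside neurons and recruits corepressor complexes to a DNA element called RE1. RE1 has a left arm, CAGCACC, and a right arm, GGACAGC, that lie close together in its usual form. Several microRNAs of the brain are known REST targets, among them miR-9, which is made from separate genes and itself targets REST, and miR-132, an activity-induced microRNA transcribed with miR-212. miR-137 is a regulator of neuronal maturation and synapses, and miR-29a and miR-29b are abundant in the mature brain and target the BACE1 transcript.

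The mature sequences show which of these genes share a product. All 8 genes were matched in the RefSeq table for GRCm38.p6, the assembly also called mm10, and the main strands are printed 5′ to 3′ with the seed, bases 2 to 8, in capitals.
miR-9-5p: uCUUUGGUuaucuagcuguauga
miR-9-3p: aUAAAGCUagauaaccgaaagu
miR-132-3p: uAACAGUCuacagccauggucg
miR-212-3p: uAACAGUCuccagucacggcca
miR-137-3p: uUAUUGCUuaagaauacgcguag
miR-29a-3p: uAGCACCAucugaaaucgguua
miR-29b-3p: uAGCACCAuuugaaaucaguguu
Mir9-1, Mir9-2 and Mir9-3, on chromosomes 3, 13 and 7, give the same miR-9-5p and the same miR-9-3p. miR-132-3p and miR-212-3p share the seed AACAGUC and are identical at 17 of 22 positions. miR-29a-3p and miR-29b-3p share the seed AGCACCA and are identical at 18 of the first 22 positions.

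REST peaks lay within 10 kb of 5 of the 8 genes in the WT list and of 6 in the 3xTg list. The same rule called 5.13% of all 1228 microRNA genes in WT (63 genes, 95% Wilson interval 4.03 to 6.51%) and 8.39% in 3xTg (103 genes, 6.96 to 10.1%), intervals that cover counting over genes alone. Mir9-2, Mir9-3, Mir132, Mir212 and Mir137 had a peak in both lists. Mir9-1 had a peak in the 3xTg list alone, and Mir29a and Mir29b-1 had none in either list. The genes are not independent sites, since Mir132 and Mir212 share a peak and the 8 genes fall into 6 clusters of neighbours within 10 kb. Of all microRNA clusters, 5.83% had a peak in WT and 9.65% in 3xTg.

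**Figure D1:**
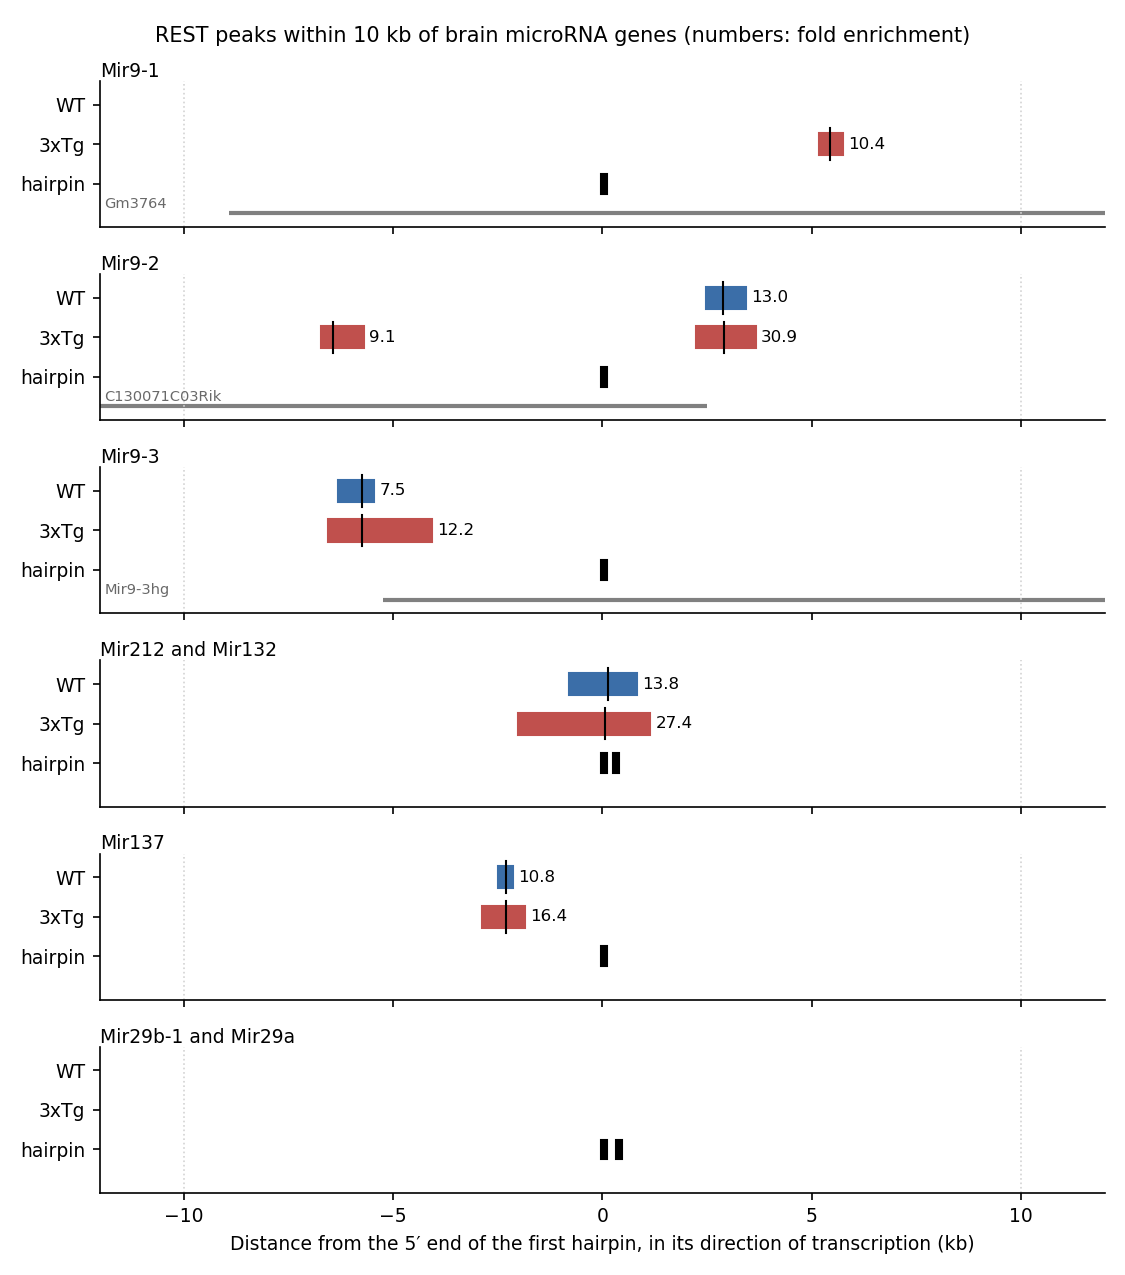
REST peaks of the WT list (blue) and the 3xTg list (red) around each hairpin (black), with the distance from the 5′ end of the first-named hairpin in kb on the x axis, the summit as a black tick, the fold enrichment beside each peak and the RefSeq host gene in grey. Mir132 and Mir212 lie inside a peak of both lists, Mir9-1 has a peak in 3xTg alone and Mir29b-1 and Mir29a have none within 10 kb.

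The peaks are described below by their fold enrichment, the ratio of ChIP signal at the summit to the local background given by the peak caller, and by their rank on it, where 1 is the highest of 3006 WT or 5077 3xTg peaks. The lowest fold enrichment in the lists was 6.003 in WT and 8.502 in 3xTg, and the medians were 7.28 and 10.8. Both minimums lie above the stated filter of 5, the lowest −log10 q was 13.3 in WT and 28.96 in 3xTg, and the peak numbers kept in the names run up to 25141 in WT and 76742 in 3xTg, so the lists hold fewer peaks than were numbered. A site absent from a list may therefore have passed the stated filter, and a peak found in 3xTg alone is one without a WT peak above the WT minimum. The depth of the libraries cannot be read from the lists. Peaks were also wider in 3xTg, with a median of 937 bases against 612 in WT.

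Mir132 and Mir212 were the only listed genes that a peak overlapped. Of all microRNA genes, 0.814% were overlapped by a WT peak and 1.63% by a 3xTg peak. Both hairpins lie on the plus strand of chromosome 11, Mir212 at chr11:75173388-75173478 and Mir132 at chr11:75173682-75173747. RefSeq places no host gene over them, whereas GENCODE M21 places both in 1700016P03Rik, which starts at 75172560. In WT the peak ran over chr11:75172598-75174223, began 38 bases after that start, and had a fold enrichment of 13.8 and rank 251, within the highest 8.35% of the list. In 3xTg it ran over chr11:75171379-75174536, covered that start, and had a fold enrichment of 27.4 and rank 188, within the highest 3.70%. The nearest RefSeq start site was that of Hic1, a transcriptional repressor gene, 3263 bases from the WT summit and 3198 bases from the 3xTg summit.

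The WT summit fell 40 bases beyond the 3′ end of Mir212, in the 203 bases that separate the hairpins, and the 3xTg summit fell in the Mir212 hairpin, 65 bases away. That stretch, chr11:75173479-75173681, is printed from the plus strand because it holds both arms of RE1, in capitals as read from the other strand, and a TGACGTCA word, also in capitals.
Mir212 to Mir132: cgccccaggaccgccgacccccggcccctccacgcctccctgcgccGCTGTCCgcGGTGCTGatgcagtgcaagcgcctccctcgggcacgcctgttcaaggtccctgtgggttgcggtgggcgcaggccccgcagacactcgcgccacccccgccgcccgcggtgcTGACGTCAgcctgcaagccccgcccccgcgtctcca
Both arms were exact and 2 bases apart, and their centre lay 15 bases from the WT summit and 80 bases from the 3xTg summit. TGACGTCA is the palindromic cyclic AMP response element that CREB binds, and it was present at chr11:75173646-75173653. That word occurred in 2.59% of WT peaks, in 2.86% of 3xTg peaks and in 0.540% of windows of the same width placed 10 kb downstream of the WT peaks. It was chosen after the sequence was seen. The WT peak at this locus was rich in G and C, at 64.3% against a median of 48.4% over all WT peaks.

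Mir137, at chr3:118433857-118433929 on the plus strand, had its peak upstream in both lists. The WT peak, chr3:118431356-118431728, lay 2129 bases upstream with a fold enrichment of 10.8 and rank 463. The 3xTg peak, chr3:118430978-118432008, lay 1849 bases upstream with a fold enrichment of 16.4 and rank 825. The summits were 5 bases apart, and the peak stood at nearly the same place in both lists, within the highest 15.4% in WT and 16.2% in 3xTg. RefSeq gives Mir137 no host gene, and its nearest start site, that of Gm26871, was 66742 bases from the WT summit. In GENCODE M21 Gm26871 begins at 118430324 and contains Mir137, so that the WT summit lay 1241 bases inside that transcript.

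The Mir137 peak also held both exact arms of RE1, but 9 bases apart. The site is printed from the minus strand of chr3:118431553-118431615, with the arms in capitals.
Mir137 upstream peak: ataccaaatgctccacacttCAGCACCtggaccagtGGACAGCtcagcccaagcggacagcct
Its centre was 19 bases from the WT summit and 24 bases from the 3xTg summit. Against a 21-base matrix built from the highest WT peaks, in which the arms have their usual distance, the best match in this peak scored 12.8 bits, under the 13.3 bits that 1% of control windows passed. The matrix alone therefore did not call the pair of arms in the Mir137 peak.

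Over each whole list, exact arms on the same strand, with the left arm first, were counted at every distance from 0 to 20 bases. A distance of 2 bases was found in 59 WT peaks (1.96%) and 67 3xTg peaks (1.32%), against 0 of 2962 and 1 of 4973 control windows. Distances of 7 to 11 bases were found in 40 WT peaks (1.33%) and 49 3xTg peaks (0.965%). The distance of 9 bases seen at Mir137 was held by 17 WT peaks and 20 3xTg peaks, more than any other distance above 2 bases. That distance was held by 1 of 2962 WT and 0 of 4973 3xTg control windows. At the other distances from 7 to 11 bases no control window held the pair. At 13 bases 3 WT and 4 3xTg control windows held it, but no peak did. No peak of either list had the arms 3, 4 or 5 bases apart. The Mir132 and Mir212 peak and the Mir9-1 peak belonged to the group at 2 bases, and the Mir137 peak to the group around 9 bases. This count was chosen after the Mir137 sequence was seen.

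**Figure D2:**
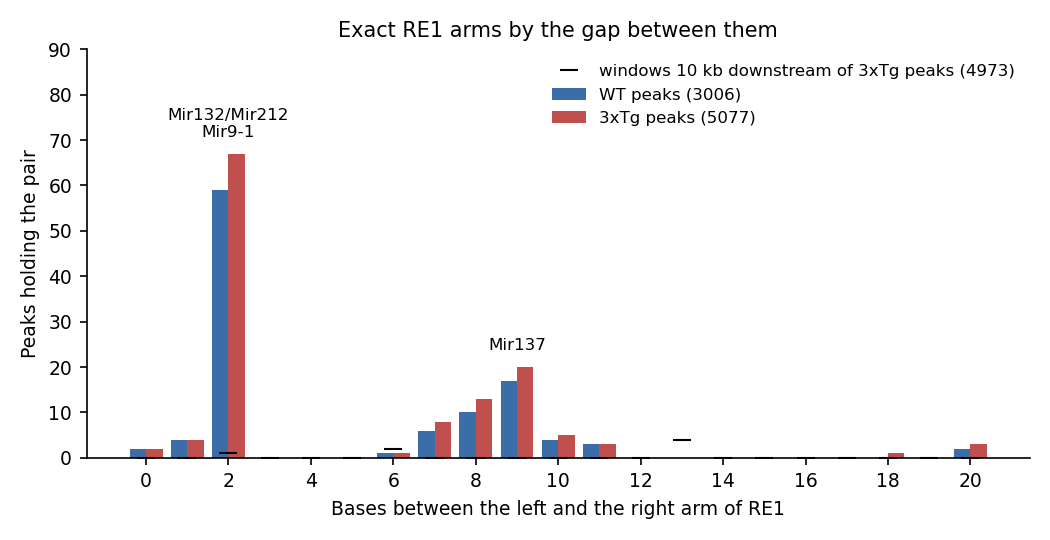
Number of WT peaks (blue) and 3xTg peaks (red) that hold both exact arms of RE1, by the number of bases between them on the x axis, with black ticks for windows 10 kb downstream of the 3xTg peaks. Peaks gather at 2 bases (59 WT, 67 3xTg), where the Mir132/Mir212 and Mir9-1 peaks lie, and around 9 bases (17 WT, 20 3xTg), where the Mir137 peak lies.

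The Mir9 genes differed from each other in peak, position and sequence, although they give the same mature microRNA. Mir9-2, at chr13:83738814-83738885 on the plus strand in an exon of the long noncoding RNA gene C130071C03Rik, had the highest fold enrichment of the listed genes in 3xTg. Its peak lay downstream of the hairpin, across the annotated 3′ end of the RefSeq host, which GENCODE M21 extends to 83884194. In WT it ran over chr13:83741287-83742254, 2402 bases downstream, with a fold enrichment of 13.0 and rank 277. In 3xTg it ran over chr13:83741060-83742474, 2175 bases downstream, with a fold enrichment of 30.9 and rank 130. Among the microRNA genes with a peak, Mir9-2 had place 9 of 63 in WT and place 3 of 103 in 3xTg.

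The Mir9-2 peak held no pair of RE1 arms. Its best match to the matrix scored 7.24 bits, a value that 87.6% of WT peaks reached, and lay 341 bases from the WT summit. It was poor in G and C, at 37.1% against the WT median of 48.4%. The letters under the summit are printed from the plus strand of chr13:83741650-83741716 because they carry the 7-base word TAACTAG, in capitals, which was the most over-represented word at the highest WT summits.
Mir9-2 downstream peak: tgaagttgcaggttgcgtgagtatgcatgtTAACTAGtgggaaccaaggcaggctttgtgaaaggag
The word was centred 4 bases from the WT summit and 25 bases from the 3xTg summit. On either strand it was present within 50 bases of the summit in 71 of the 500 highest WT peaks and in 79 of the 500 highest 3xTg peaks outside the listed genes, against 3 and 2 of the 500 sequences 10 kb away. The word was picked for its excess in these same sequences, so these counts are no separate check on it. None of the other peaks by the listed genes held the word. With the word within 100 bases of the summit, 3 of 360 WT peaks (0.833%) and 18 of 647 3xTg peaks (2.78%) held, anywhere in the peak, an RE1 match over the 1% limit of a matrix started from the RE1 arms. That limit was passed by 219 of all 3006 WT peaks (7.29%) and 345 of all 5077 3xTg peaks (6.80%).

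A further peak upstream of Mir9-2 was present in 3xTg alone, at chr13:83732091-83733112, 5702 bases from the hairpin. It had a fold enrichment of 9.15 and rank 4103, near the 3xTg minimum of 8.502, and its summit lay 119 bases from an internal start site of C130071C03Rik. A 3xTg peak of the same fold enrichment covered the main start of that host at chr13:83720805-83722592, 16222 bases upstream and thus beyond the 10 kb limit. Neither had a counterpart in the WT list.

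Mir9-3, at chr7:79505264-79505353 on the plus strand in an intron of its host gene Mir9-3hg, had its peak at the host promoter. The WT peak, chr7:79498953-79499818, ended 208 bases before the host start at 79500026 and had a fold enrichment of 7.496 and rank 1372. The 3xTg peak, chr7:79498710-79501196, covered the host start and had a fold enrichment of 12.2 and rank 1861. The summits were 5 bases apart, 505 and 510 bases upstream of that start. This was the weakest of the peaks that the listed genes had in both lists, and its WT value was below the lowest value of the 3xTg list. The best match to the matrix scored 13.0 bits, under the limit of 13.3 bits, lay 223 bases from the WT summit and had no exact pair of arms. Other peaks shared by both lists lay beyond 10 kb, among them one over the start of Polg, the gene of the mitochondrial DNA polymerase, 38411 bases upstream in WT.

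Mir9-1, at chr3:88215598-88215686 on the plus strand in an intron of the long noncoding RNA gene Gm3764, had a peak in the 3xTg list alone. The 3xTg peak, chr3:88220766-88221346, lay 5080 bases downstream with its summit in an exon of Gm3764, and had a fold enrichment of 10.4 and rank 2815. The nearest WT peak was 285473 bases away in an intron of Lmna. A peak in 3xTg alone is common in these lists, since 51.0% of 3xTg peaks overlapped no WT peak. The summit of the Mir9-1 peak fell within 12 bases of an exact pair of RE1 arms, printed from the plus strand of chr3:88221007-88221062.
Mir9-1 downstream peak: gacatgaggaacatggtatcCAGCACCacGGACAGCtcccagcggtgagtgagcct
With 18.2 bits, the Mir9-1 site had the highest matrix score of the peaks by the listed genes, above the 16.6 bits of the Mir132 and Mir212 site, and only 9 of the 5077 3xTg peaks scored as high. Exact arms 2 bases apart were found in 12 of the 2588 3xTg peaks without a WT counterpart (0.464%), of which the Mir9-1 peak is one, and in 55 of the 2489 3xTg peaks that overlapped a WT peak (2.21%). Whether REST bound this site in WT below the limit of the list was not tested.

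Mir29a and Mir29b-1 lie 276 bases apart on the minus strand of chromosome 6, at chr6:31062660-31062747 and chr6:31063023-31063093, and have no annotated host in RefSeq or in GENCODE M21. No peak of either list came within 50 kb of them. The nearest lay upstream in introns of Lncpint, a long noncoding RNA gene. In WT it was 141915 bases from Mir29b-1 and 142261 bases from Mir29a, with a fold enrichment of 7.38. In 3xTg it was 127444 and 127790 bases away, with a fold enrichment of 8.81.

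**Figure D3:**
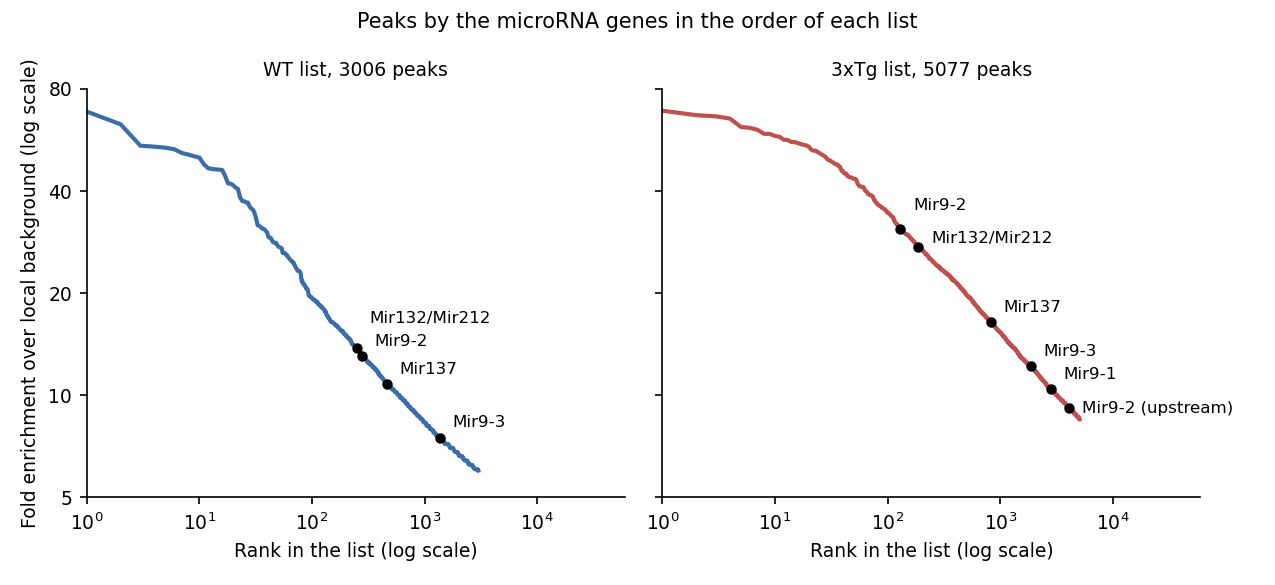
Fold enrichment over the local background (y axis, log scale) against rank (x axis, log scale) for all peaks of each list, with the peaks by the listed genes as black points. The Mir132/Mir212 and Mir9-2 peaks stand highest in both lists, at ranks 251 and 277 in WT and 188 and 130 in 3xTg.

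The consensus of the matrix, TAGTCAGCACCCTGGACAGCG, holds both arms of RE1. The limit passed by 1% of control windows was exceeded by 1 of the 4 WT peaks by the listed genes, that of Mir132 and Mir212, and by 2 of the 6 3xTg peaks, that of Mir132 and Mir212 and that of Mir9-1. Over all peaks the share above this limit was 6.39% in WT and 5.79% in 3xTg, against 1.01% and 1.51% of their control windows. With the matrix started from the RE1 arms the Mir137 peak was also called, at 14.8 bits against a limit of 13.7, which made the counts 2 of 4 and 3 of 6. The Mir9-2 and Mir9-3 peaks were not called by either matrix.

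The peaks present in both lists were set side by side for the question whether these sites differ between WT and 3xTg mice. All 4 WT peaks by the listed genes overlapped a 3xTg peak, but so did 2504 of all 3006 WT peaks. The fold enrichment was higher in 3xTg in each of the 4 pairs. This was also the case in 99.5% of all 2504 overlapping pairs, so the direction does not set the microRNA genes apart. Where the WT value lay under 8.502, the 3xTg minimum, no other direction was possible. This held for Mir9-3 at 7.496, and the median of all WT peaks, 7.28, lay under that minimum too. The ratio of such pairs is also bounded from below. The ratio of 3xTg to WT fold enrichment was 2.37 for Mir9-2, 1.98 for Mir132 and Mir212, 1.62 for Mir9-3 and 1.52 for Mir137, beside a median of 1.70 over all pairs and a range of 1.34 to 2.23 from the 10th to the 90th percentile. Mir9-2 thus lay above that range, and 6.27% of all pairs had a ratio as high. Relative to the length of each list, Mir9-2 moved from the highest 9.21% to the highest 2.56%, Mir132 and Mir212 from 8.35% to 3.70% and Mir9-3 from 45.6% to 36.7%, whereas Mir137 moved from 15.4% to 16.2%. A higher place in 3xTg was held by 76.7% of all pairs. Place depends on list length, and the 3xTg list is the longer one. By rank alone Mir9-3 went from 1372 to 1861 and Mir137 from 463 to 825, while Mir9-2, Mir132 and Mir212 stood higher in 3xTg. These values come from pooled lists with different minimum values, and whether they differ between animals was not tested here. The paper compared the replicates of both genotypes and reported peaks with significantly higher REST occupancy in 3xTg and none significantly lower. Whether the peaks by the listed genes are among them was not examined here.

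**Figure D4:**
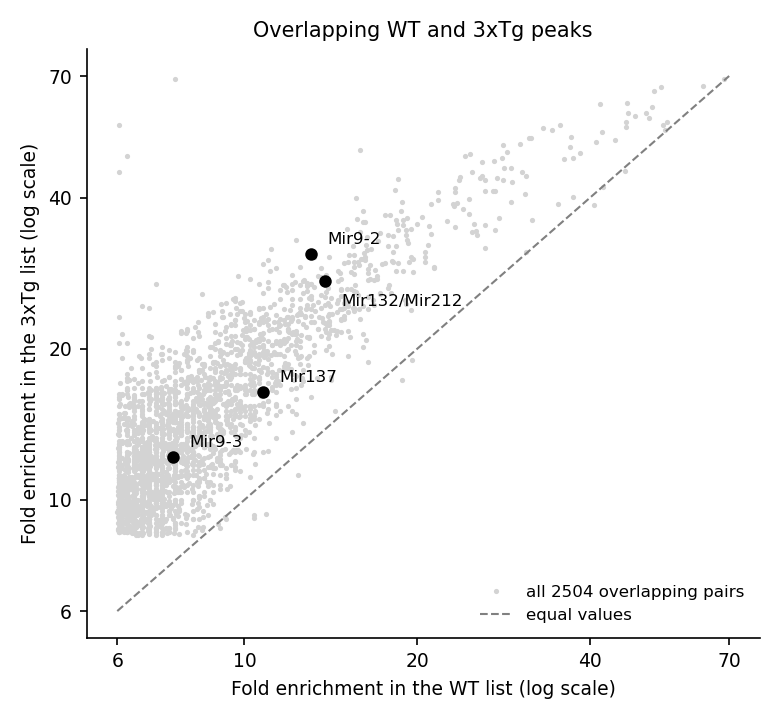
Fold enrichment in the 3xTg list (y axis, log scale) against the WT list (x axis, log scale) for all 2504 overlapping pairs of peaks (grey), with the pairs by the listed genes in black and a dashed line at equal values. The 4 marked pairs lie above the line, as do 99.5% of all pairs, and Mir9-2 lies near the upper edge.

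The count of listed genes with a peak did not depend on distances beyond 10 kb. At 5 kb the WT peak of Mir9-3 and the 3xTg peak of Mir9-1 were lost, leaving 4 genes in WT and 5 in 3xTg, and at 1 kb only Mir132 and Mir212 were left in either list. From 10 to 50 kb the counts stayed at 5 and 6, while the share of all microRNA genes with a peak grew from 5.13% to 19.95% in WT and from 8.39% to 29.8% in 3xTg.

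**Figure D5:**
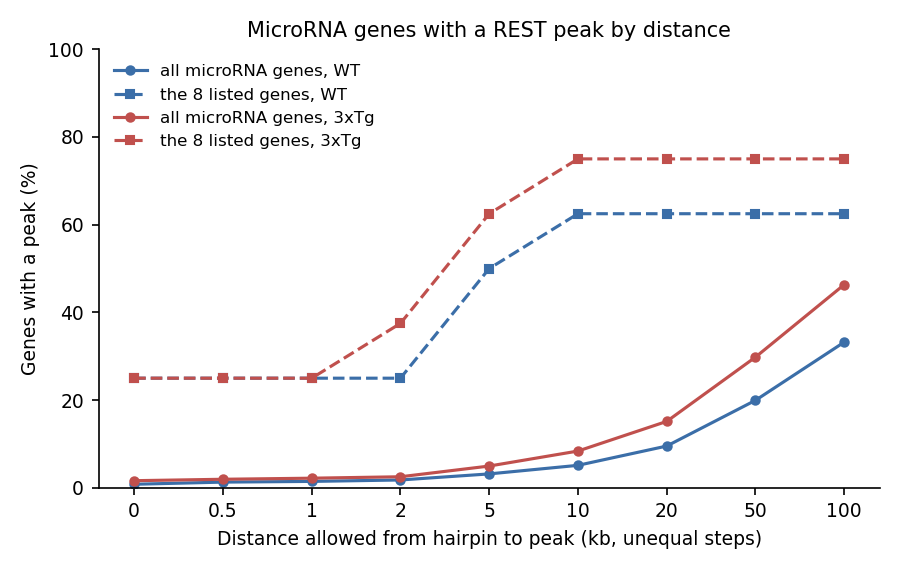
Percentage of genes with a REST peak (y axis) by the distance allowed between hairpin and peak (x axis, kb, unequal steps), for the 8 listed genes (dashed) and all 1228 microRNA genes (solid) in WT (blue) and 3xTg (red). The listed genes reach 5 of 8 in WT and 6 of 8 in 3xTg at 10 kb and gain none up to 100 kb.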

How the data were processed

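REST ChIP-seq peaks were taken from the deposited lists of WT and 3xTg cortex. Per the study's methods, the authors aligned reads to mm10 with STAR 2.7.0a (BWA is also named in the submitters' processing notes), called peaks with MACS, removed blacklisted peaks and kept a fold enrichment over 5 and a q under 0.01. Both lists start well above that filter, and what removed the lower peaks is not given in the sources used here. How the 4 replicates were combined is not given in the sources used here. The deposited values are a score, a fold enrichment (ratio) over the local background, −log10 of the p-value (not used) and of the q-value, and a summit offset. Chromosome Y was not used (4 WT and 9 3xTg peaks), a choice made after the data were seen.

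Distances run from hairpin edge to peak edge on RefSeq coordinates of GRCm38.p6. GENCODE M21 was used for further host genes. A 21-base matrix was derived by expectation maximisation from 50 bases on either side of the summits of the 500 highest WT peaks outside the listed genes, started from the most over-represented 7-base word. Its score limit was passed by 1% of windows 10 kb downstream of the WT peaks. The arms of RE1 are textbook letters. The matrix derivation and its scan were tested on simulated sequences with planted sites, and the distance rule on made-up genes. The software was pysam 0.24.0, pandas 2.3.3, numpy 2.4.6, scipy 1.17.1 and matplotlib 3.10.9 under Python 3.11.15, and no significance test was run. Named were all 8 listed genes, their hosts and nearest start sites, and the 5 microRNA genes with the highest WT peaks. Genes of a comparison list of other microRNAs were named where they had a peak in both lists. The genes and lists were chosen with earlier results of these data known.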

Additional observations from a re-analysis of the deposited data

How the results depend on the processing

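The lists pool the replicates, so leaving out a replicate could not be run, and no paired analysis was possible because no result comes from replicate values. The number of listed genes with a peak, 5 in WT and 6 in 3xTg, was 2 and 2 at 1 kb and otherwise 4 to 5 and 5 to 6. With 8.502, the lowest 3xTg fold enrichment, as the minimum in both lists, Mir9-3 was lost in WT and 4 genes were left, an alternative chosen after seeing the data like the kept chromosome Y and the searches for RE1 arms. Of all microRNA genes, 63 in WT and 103 in 3xTg had a peak within 10 kb, against 18 and 27 at 1 kb, 39 and 61 at 5 kb and 245 and 366 at 50 kb. In WT this count was 17 with a fold enrichment over 10 and 22 at the 3xTg minimum.

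Ranks by −log10 q and by score differed from those by fold enrichment. In WT they were 297 and 297 for Mir132 and Mir212, 340 and 340 for Mir9-2, 548 and 548 for Mir137, and 1260 and 1256 for Mir9-3. In 3xTg they were 218 and 218 for Mir132 and Mir212, 168 and 168 for the downstream and 4416 and 4415 for the upstream peak of Mir9-2, 966 and 964 for Mir137, 1672 and 1672 for Mir9-3, and 2442 and 2440 for Mir9-1. An overlap of 50% of both peaks left 2 shared peaks in either list, as the 3xTg peaks are wider. The number of peaks by the listed genes with an RE1 match was 1 in WT and 2 in 3xTg. At the limit passed by 5% of windows it was 3 and 4, beside 13.7% and 15.8% of all peaks. A matrix from the 3xTg list, whose consensus holds neither arm whole, gave 0 and 1, beside 4.32% and 4.00% of all peaks. In WT the number was 2 with the matrix started from the RE1 arms, beside 7.29% of all peaks. With exact arms up to 20 bases apart it was also 2, beside 3.49%. The lists hold no depth, and a site under their minimum values is not seen.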

Other observations

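Of 32 other microRNA genes on a comparison list, 3 had a peak within 10 kb in WT (9.38%) and 5 in 3xTg (15.6%), beside 5.13% and 8.39% of all microRNA genes. Mir7b, a gene of the miR-7 family, had the highest peak of any microRNA gene in the WT list. Its peak lay 235 bases from the hairpin in WT, had a fold enrichment of 31.0 and rank 37, and overlapped it in 3xTg, with a fold enrichment of 44.3 and rank 44. The genes of miR-129 were both near a peak in both lists. Mir129-2 had a fold enrichment of 12.4 in WT and 19.2 in 3xTg, and Mir129-1 had 6.43 and 14.5, with its peak 463 bases from the hairpin in WT and 348 bases in 3xTg. Mir138-2 and Mir135a-1, named after their values were seen, had a peak in 3xTg alone, at 10.7 and 8.66. The other 27 genes, those of miR-124, miR-128, miR-34 and miR-29c among them, had no peak within 10 kb in either list.

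After Mir7b, the microRNA genes with the highest WT peaks were Mir688 at 14.8, Mir15b and Mir16-2 at 14.2 from a shared peak, and Mir6979 at 14.01. Mir132 and Mir212 followed at place 6 of the 63 microRNA genes with a WT peak. Of all microRNA genes, 50 were near a peak of both lists, 13 near a WT peak alone and 53 near a 3xTg peak alone.

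The 7-base word TAACTAG, seen under the Mir9-2 summit, was present within 100 bases of the summit in 11.98% of the WT list and 12.7% of the 3xTg list, and in 17.0% and 19.2% of the 500 highest. Over whole peaks it was present in 17.8% (WT) and 21.3% (3xTg), against 4.73% and 8.06% of control windows of the same widths. All these shares include the highest peaks, from which the word was picked. The factor that the word may bind was not identified here.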
